A study of Mus musculus with 74 samples.

Results

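Naive sorted sensory neurons were compared with uninjured whole dorsal root ganglion (DRG), the cluster of sensory nerve cell bodies beside the spinal cord from which those neurons were taken. The libraries were picked by their titles, with earlier results of these data known: all naive FACS (fluorescence-activated cell sorting) wells, which are 18 libraries from 6 mice, and all 4 uninjured whole DRG mice, out of 74 libraries from 30 mice in the series. A second contrast used mice taken 1 day after spinal cord injury (SCI), in which the dorsal column was cut at thoracic level. These were 12 FACS wells from 4 mice and 4 whole DRG mice, with the age ranges given below for each library type. Whole DRG libraries were made from the fourth lumbar ganglion (L4) of female C57BL/6 wild type mice aged 10 to 12 weeks, as total RNA depleted of ribosomal RNA. Sorted libraries were made from 100 YFP-positive cells per well, 3 wells per mouse, of female Thy1YFP16 mice aged 10 to 20 weeks, after L4 DRG had been dissociated with papain and collagenase, with a kit for very small amounts of RNA. In these mice the Thy1 promoter drives the yellow fluorescent protein, and cells were sorted by its signal. The paper describes the labelled cells as large ascending sensory neurons. The number in the genotype label runs on from well to well, and the strain name was used in its place. Wells of 1 mouse were summed, and the mouse was the replicate. Of the 6 naive mice, 4 belong to a set titled FACS and 2 to a set titled FACS2018, with titles naming day 1 or day 3 although none was injured. Cell type, strain, age range, dissociation, sorting and library kit all change with the group and cannot be told apart in any value below, and a lower level of a gene can come from fewer cells of a type or from less RNA per cell, which cannot be told apart either.

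DRG neurons fall into large, myelinated proprioceptors and touch receptors, whose central branches ascend in the dorsal columns of the spinal cord, and small nociceptors, which end in the dorsal horn. Each cell body is wrapped in satellite glia, its axon in Schwann cells, and the ganglion also holds macrophages, fibroblasts and blood vessels. Parvalbumin (Pvalb) marks proprioceptors, Scn10a encodes the sodium channel Nav1.8 of nociceptors, and Ldha and Ldhb encode the subunits of lactate dehydrogenase that are richer in glycolytic and in oxidative tissue, respectively.

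The difference between the groups followed the base composition of the transcripts, as described with the genes grouped by GC content, so the first 150 coding bases of 4 genes are shown with G and C in capitals (GENCODE vM21 annotation and transcripts, build GRCm38, 5' to 3'). Tmem259 and Slit1 were among the genes most depleted in sorted neurons and have the GC-richest transcripts of the 8 most depleted genes named, mt-Cytb was among the 8 most enriched and has the GC-poorest transcript of them, and Btg2 was among the 8 most enriched, with a start richer in G and C than that of mt-Cytb and a transcript of 49.7% GC, near the median of protein-coding genes (49.8%).
Tmem259 (chr10:79983982-79984131, minus strand, 110 of 150 bases G or C): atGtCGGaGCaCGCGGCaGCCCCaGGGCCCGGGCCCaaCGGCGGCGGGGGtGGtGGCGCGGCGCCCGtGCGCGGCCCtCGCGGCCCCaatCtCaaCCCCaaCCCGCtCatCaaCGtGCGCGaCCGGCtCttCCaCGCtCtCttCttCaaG
Slit1 (chr19:41743259-41743408, minus strand, 111 of 150): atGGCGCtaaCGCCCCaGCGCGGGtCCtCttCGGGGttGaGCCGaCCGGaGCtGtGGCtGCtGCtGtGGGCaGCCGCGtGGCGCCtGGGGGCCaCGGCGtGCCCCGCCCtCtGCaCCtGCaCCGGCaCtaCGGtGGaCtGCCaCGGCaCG
mt-Cytb (chrM:14145-14294, plus strand, 56 of 150): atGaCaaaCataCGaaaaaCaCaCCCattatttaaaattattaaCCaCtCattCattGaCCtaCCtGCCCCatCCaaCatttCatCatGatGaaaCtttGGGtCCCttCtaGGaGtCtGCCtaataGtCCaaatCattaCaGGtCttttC
Btg2 (chr1:134077696-134079053, minus strand, joined over an intron, 92 of 150): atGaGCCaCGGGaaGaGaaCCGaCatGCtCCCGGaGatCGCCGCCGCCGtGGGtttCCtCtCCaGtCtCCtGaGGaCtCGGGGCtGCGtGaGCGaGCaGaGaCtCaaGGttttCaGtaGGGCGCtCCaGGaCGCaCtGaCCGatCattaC

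Whole DRG libraries held between 21959030 and 44493319 reads on genes. The summed wells of a naive mouse held between 47699504 and 74653760, and single wells between 5339496 and 49015375. Levels are given as CPM, the counts of a gene scaled to the total of all genes in that mouse. Whole DRG mice resembled one another far more closely than sorted mice did. The Spearman correlation across 20546 genes, which are not independent of one another, was 0.990 to 0.996 between whole DRG mice, 0.741 to 0.906 between naive mice and 0.687 to 0.821 between a naive and a whole DRG mouse. The biological coefficient of variation was 0.121 in whole DRG and 1.53 in sorted neurons.

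The naive wells were not all alike. In 12 wells the summed CPM of 20 pan-neuronal genes was 27005 to 46210, against 15869 to 17669 in whole DRG, and that of 15 Schwann cell myelin genes was 1969 to 13372, against 3511 to 3918. In the other 6 wells (mouse 1 well c, mouse 2 well a, and wells b and c of mice 5 and 6) the order was inverted, with 751 to 4292 CPM on neuronal and 61297 to 119982 CPM on myelin genes. These 6 wells went against their label as sorted neurons. They are called the wells apart below, and 2 of them are among the 12 wells of the set FACS and 4 among the 6 of the set FACS2018. They stayed in the sums of their mice, and values without them are given beside the results that moved with them. The wells apart were picked by these 2 lists. Changes in members of either list without those wells therefore follow in part from the choice and test nothing.

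**Figure D1:**
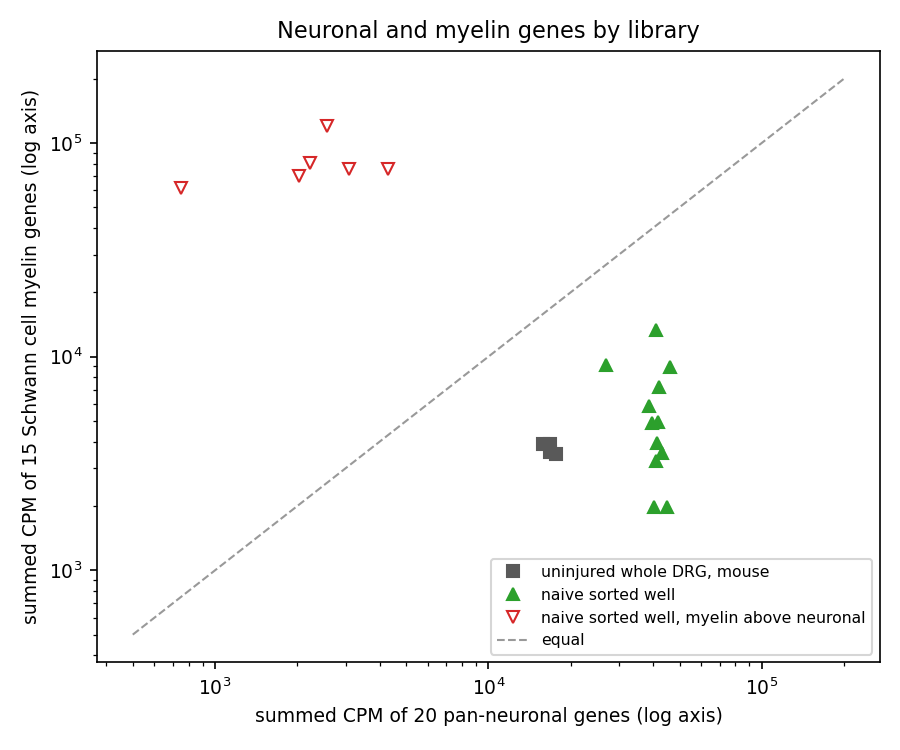
Summed CPM of 20 pan-neuronal genes (x axis, log) against summed CPM of 15 Schwann cell myelin genes (y axis, log), 1 point per naive well or whole DRG mouse, with the dashed line marking equal sums. The 6 wells apart (open triangles) sit at 61297 CPM of myelin genes or more, above the line, and the other 12 wells sit to the right of whole DRG, at 27005 CPM of neuronal genes or more.

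The first question was whether the marker genes separate the groups. Ldhb (ENSMUSG00000030246, chr6:142490249-142507957 on GRCm38) was measured at 153, 201, 198 and 197 CPM in the 4 whole DRG mice and at 1048, 1148 and 2510.2 CPM (lowest, median and highest) in the 6 naive mice. All 18 wells lay above all whole DRG mice. The log2 fold change was 3.00 (SE 0.34, p-adj = 3.91e-04, edgeR quasi-likelihood test with Benjamini-Hochberg adjustment over all genes), and 1.68 (p-adj = 0.00245) once trends on GC content and length were removed. Ldha (chr7:46841475-46855627), the other subunit, stood at 279.7, 309, 313 and 319 CPM in whole DRG and at 311, 474 and 692 CPM in naive mice, with overlap of the groups. Its log2 fold change of 0.65 (SE 0.26, p-adj = 0.0982) lay just inside the threshold of 0.1 and was -0.24 (p-adj = 0.543) with those trends removed. Per kilobase of exon, Ldhb made up 53.6 to 57.8% of the reads on both subunits in whole DRG mice (56.3% ± 1.87, SD, n = 4) and 80.6 to 88.7% in naive mice (86.3% ± 3.06, SD, n = 6), so the shares did not overlap. Without the wells apart the naive shares ran from 58.9 to 89.6% (80.3% ± 11.2, SD, n = 6), with the lowest mouse close to the highest whole DRG mouse. The wells apart themselves held 87.2 to 99.9%.

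Pvalb and Scn10a were uneven among the naive mice. Pvalb (chr15:78191114-78206400) stood at 84.1, 151, 136 and 143 CPM in whole DRG and at 1.68, 445 and 1299 CPM in naive mice. The groups overlapped, and the log2 fold change of 2.19 (SE 1.13) did not pass the test (p-adj = 0.185). It was 3.07 with TMM factors (p-adj = 0.0932) and 0.22 with the trends removed (p-adj = 0.910). Scn10a (chr9:119608456-119719322) stood at 649, 606, 584 and 584 CPM in whole DRG and at 0, 56.3 and 211 CPM in naive mice. Each naive mouse lay below each whole DRG mouse, although the log2 fold change of -3.08 (SE 1.44) did not pass the test either (p-adj = 0.147).

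Single wells showed how the markers were spread. Of the 12 wells, 8 held 506 to 3995 CPM of Pvalb, above every whole DRG mouse. Scn10a reached 49.95 to 302 CPM in 5 of the 12 wells and at most 1.10 CPM in the rest. The 3 wells with the highest Scn10a, at 228, 272 and 302 CPM, held 0.827, 3.01 and 2.82 CPM of Pvalb. The wells apart held 0.811 to 20.6 CPM of Pvalb and at most 1.55 CPM of Scn10a, but 1303 to 2561 CPM of Ldhb.

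**Figure D2:**
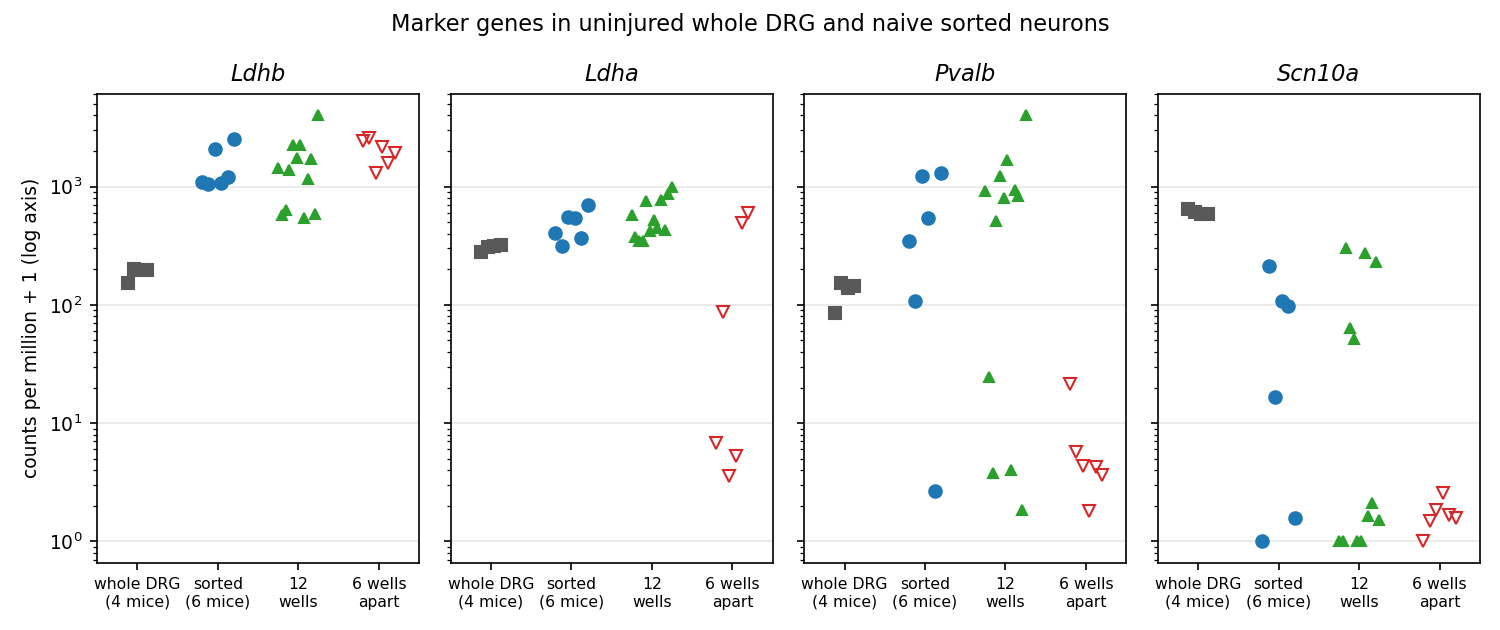
Levels of Ldhb, Ldha, Pvalb and Scn10a (CPM plus 1, log axis) in 4 uninjured whole DRG mice (squares), 6 naive sorted mice (circles), and the wells of those mice, split into 12 wells (filled triangles) and the 6 wells apart (open triangles). Every point for sorted cells lies above whole DRG for Ldhb and below it for Scn10a, whereas Pvalb points lie on both sides.

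Across the transcriptome, 1941 of 20546 genes tested were higher in naive sorted neurons (9.45%) and 4621 were lower (22.5%) at p-adj under 0.1. Without the wells apart, 2182 of 20100 genes were higher (10.9%) and 5437 were lower (27.0%). The groups did not overlap in 1557 genes with sorted neurons above (7.58%) and in 6868 with sorted neurons below (33.4%). Of the genes called lower, 383 had no read in any naive mouse. The median log2 fold change of all genes was -0.47 with scaling to the library total, and TMM factors moved it up by 0.76, after which 3259 genes were higher (15.9%) and 3062 lower (14.9%). The split of calls between directions thus depended on the scaling, and changes of about this size in a list are read against that shift. The counts in each list below are to be set against 9.45% higher and 22.5% lower over all genes. Without the wells apart, these shares are 10.9% and 27.0%.

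Of 20 pan-neuronal genes, 5 were higher and 2 lower, with a median log2 fold change of 0.75, and without the wells apart 9 were higher and 2 lower. As this list helped to pick the wells apart, the gain without them follows in part from that choice. The median of the list turned direction between the sets of sorted mice. In the set FACS alone 11 were higher and 2 lower (median 1.13), and in the set FACS2018 alone, in which 4 of 6 wells are wells apart, 3 were higher and 9 lower (median -0.97). Over all genes, 3775 of 20190 were higher and 7530 lower in the set FACS alone. In the set FACS2018 alone 2612 of 17690 were higher and 8958 lower, so the list counts there were near the share over all genes. Snrpn, which encodes a splicing protein abundant in neurons and shares its locus and possibly reads with Snurf, was measured at 289.7, 373, 375 and 387 CPM in whole DRG and at 993, 2562 and 3388 CPM in naive mice. The mice of the groups did not overlap, and the log2 fold change was 2.74 (SE 0.36, p-adj = 6.61e-04), although the wells apart, at 15.5 to 202 CPM, all lay below whole DRG. The synuclein gene Sncg (log2 fold change 1.51), the synaptic vesicle fusion gene Snap25 (1.89) and the microtubule regulator Stmn2 (1.39) were higher too. Prph, the intermediate filament peripherin of small and medium DRG neurons, was lower instead, at 2948, 2684, 2596 and 2569 CPM in whole DRG and at 173, 363 and 575 CPM in naive mice. Without the wells apart its log2 fold change of -2.95 (SE 0.32, p-adj = 2.88e-04) was -2.50 (p-adj = 1.73e-05). The vesicle calcium sensor Syt1 was lower as well (-2.07, SE 0.36, p-adj = 0.00259), though not with TMM factors (-1.13, p-adj = 0.105).

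Of 20 large-fibre and proprioceptor genes, 3 were higher and 2 lower, with a median of -0.55 that turned to 0.21 with TMM factors, when 8 were higher and 1 lower. In the absence of the wells apart, 4 were higher and 2 lower, with a median of -0.05. The higher members were Ldhb, the secreted phosphoprotein Spp1 (2.63, and 1.95 with p-adj = 0.220 without the wells apart) and the calcium sensor Vsnl1 (2.74). The neurofilament genes Nefh, Nefm and Nefl, which give large axons their calibre, had log2 fold changes of -1.21, -0.67 and -0.60 that did not pass the test. Cacna1h, the T-type calcium channel Cav3.2, was at 88.5, 68.2, 64.1 and 62.5 CPM in whole DRG and 0.0210, 0.777 and 6.04 CPM in naive mice (log2 fold change -5.22, SE 1.16, p-adj = 0.00764).

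Of 16 low-threshold mechanoreceptor genes, 1 was higher (6.25%), the transcription factor Maf (2.34), and 4 were lower (25%). These shares were near those over all genes tested (9.45% and 22.5%), so the members below are described singly. When the wells apart were left out, none was higher and 5 were lower, and Maf had a log2 fold change of 0.23 that did not pass the test. Calb2, the calcium-binding protein calretinin, had 25.7, 30.1, 29.5 and 30.2 CPM in whole DRG and no read in 5 of 6 naive mice, the sixth standing at 0.0629 CPM (p-adj = 4.96e-04). Mafa had 7.65 to 16.5 CPM in whole DRG and at most 0.0525 CPM in a naive mouse. Ret, the receptor subunit for GDNF family ligands, and the mechanically gated channel Piezo2 were lower by log2 fold changes of -2.86 and -1.60.

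Of 27 nociceptor genes, 14 were lower and 1 higher, with a median log2 fold change of -4.01, and the counts were 14 and 1 without the wells apart too. The itch and touch receptor Mrgprd, found on non-peptidergic nociceptors, stood at 201, 197, 197 and 208 CPM in whole DRG, and had no read in 5 of 6 naive mice and 0.231 CPM in the highest. Its log2 fold change was -12.38 (SE 1.43, p-adj = 4.14e-04). The itch receptor Mrgpra3 (5.69 to 8.20 CPM in whole DRG) and the peptide gene Nppb (3.60 to 9.42 CPM) had no read in any naive mouse, which makes them at least 815-fold and 732-fold lower when 3 reads over the 6 mice are taken as the floor. These bounds cover counting error only. A gene expressed in few cells can be missing from a sorted pool by sampling, which was not tested. In the mice taken 1 day after SCI, Mrgpra3 ran from 0 to 6.19 CPM (median 0) in sorted mice, against 3.98 to 5.11 CPM in whole DRG. Its log2 fold change there was -1.54 and did not pass the edgeR test (p-adj = 0.551), whereas Nppb stayed lower (-9.97, p-adj = 1.90e-04). In naive mice the cold receptor Trpm8 (-8.72), the sodium channel Scn11a (-3.99) and the semaphorin receptor Plxnc1 (-4.30) were lower as well. The peptidergic genes did not share this direction. Calcb, which encodes a calcitonin gene-related peptide, was higher (2.91, p-adj = 0.0421), and Calca and Tac1 had log2 fold changes of 1.44 and 2.13 that did not pass the test. The summed level of the list reached 1.84% of reads in one naive mouse against 0.417 to 0.489% in whole DRG.

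Vascular genes were low in all naive mice, and the other non-neuronal lists varied with the wells apart. Of 15 endothelium and pericyte genes, 10 were lower and none was higher. The tight junction gene Cldn5, at 18.8, 23.1, 31.7 and 27.3 CPM in whole DRG, had no read in any naive well, which is at least 2899-fold lower by the same floor, and Ly6c1 was at least 1068-fold lower. The vascular growth factor receptor Flt1 had 19.2 to 23.6 CPM in whole DRG and at most 0.144 CPM in a naive mouse. Of 16 satellite glia genes, 5 were lower and 1 higher, and without the wells apart 6 were lower and none was higher. Their summed level was 0.494 to 0.550% of reads in whole DRG, 0.0155 to 0.203% in the 12 wells and 0.727 to 1.48% in the wells apart. Apoe, the lipid carrier that glia secrete, stood at 3148, 3539, 3389 and 3343 CPM in whole DRG and 0.391, 12.9 and 92.1 CPM in naive mice (log2 fold change -7.03, SE 1.22, p-adj = 0.00252). The glutamine synthetase gene Glul (-1.83) and the Notch target Hes5 (-5.94) were lower.

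Of 15 Schwann cell myelin genes, 5 were higher and 1 lower with all wells, with a median log2 fold change of 1.17, and 3 were higher and 5 lower without the wells apart, with a median of -0.06. The wells apart were picked by their high level of this list, so its fall without them follows in part from that choice. Pmp22, the peripheral myelin protein, stood at 557 to 638 CPM in whole DRG, at 1169 to 7823 CPM in the 12 wells and at 32305 to 71546 CPM in the wells apart. The myelin gene Ncmap showed the same order, with 40.9 to 57.0, 52.0 to 1144 and 2961 to 6629.9 CPM. Both were higher with all wells (4.57 and 4.72) and without the wells apart (2.72 and 2.84).

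Macrophage, fibroblast and red blood cell genes depended on those wells as well. Of 15 macrophage genes, none was higher and 2 were lower with all wells, at a median of 2.37, but 11 were lower at a median of -6.89 without the wells apart. Their summed level was 0.0107 to 0.0145% of reads in whole DRG, at most 0.0013% in the 12 wells and 0.000292 to 0.658% in the wells apart. Of 15 fibroblast and perineurium genes, 1 was higher and 2 lower with all wells, and 1 was higher and 10 lower without the wells apart. The higher gene was Ogn, which encodes the small proteoglycan osteoglycin, at 67.4 to 122 CPM in whole DRG, 18.2 to 281 CPM in the 12 wells and 1513 to 4681 CPM in the wells apart. Of 8 red blood cell genes, 1 was higher and 1 lower with all wells, and without the wells apart 1 was higher and 4 lower of 7 tested.

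**Figure D3:**
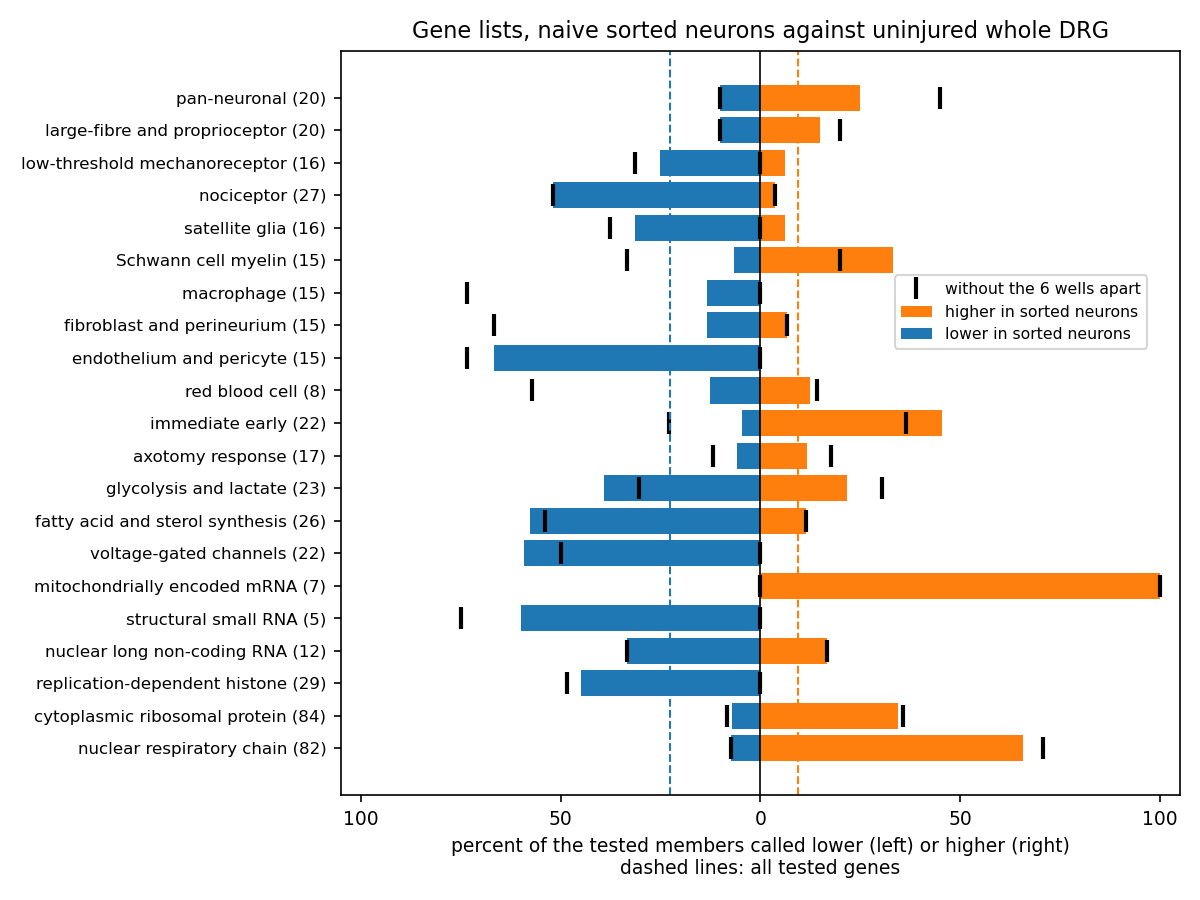
Percent of the tested members of each gene list (number tested in parentheses) called higher (right bars) or lower (left bars) in naive sorted neurons, with black ticks for the same percent without the 6 wells apart and dashed lines at 9.45% and 22.5% for all tested genes. The ticks for the macrophage, fibroblast and red blood cell lists move to the left of the bars, and those for nociceptor genes stay at the bar's end.

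Immediate early genes, which are transcribed within minutes of a stimulus, were among the largest differences. Of 22 genes, 10 were higher and 1 lower, with a median of 1.86, and 8 were higher and 5 lower without the wells apart. Fos stood at 3.69, 4.58, 3.80 and 3.20 CPM in whole DRG and at 187, 858 and 3404 CPM in naive mice (log2 fold change 8.57, SE 1.03, p-adj = 4.83e-04). The groups did not overlap in mice or wells, since the 12 wells held 86.0 to 821 CPM and the wells apart 3398 to 5550.0 CPM. Fosb (7.45), the mRNA decay factor Zfp36 (7.18), the antiproliferative gene Btg2 (5.71) and the transcription factor Egr1 (5.61) were also higher without overlap of the mice. All wells lay above whole DRG for Btg2 and Egr1, whereas well a of mouse 1 lay below it for Fosb (0.342 CPM against 0.475 to 1.14) and Zfp36 (1.08 against 2.53 to 2.88), and well b of mouse 5 lay within its range for Fosb. Without the wells apart these 5 genes had log2 fold changes of 6.87, 5.87, 5.26, 4.29 and 4.11. Atf3, a stress-induced transcription factor, was higher with overlap of the groups (3.11, p-adj = 0.0171), and Jund was lower (-3.45). Of 17 tested genes of the axotomy response, which DRG neurons raise after nerve injury, 2 were higher (Flrt3 and Sprr1a) and 1 lower, and without the wells apart 3 were higher and 2 lower, with Flrt3 no longer among them (1.93, p-adj = 0.226). Their other members were scattered, with values of 6.52 for the neuropeptide gene Npy and 1.77 for the transcription factor Sox11 that did not pass the test, although Sox11 passed without the wells apart (1.97, p-adj = 0.0671). In the set FACS alone 10 of 17 were higher and 3 lower, and in the set FACS2018 alone 3 of 16 were higher and 5 lower. The counts over all genes in each set are given with the pan-neuronal list.

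Of 23 genes of glycolysis and lactate handling, 5 were higher and 9 lower, with a median of -0.43 that turned to 0.28 with TMM factors, when 8 were higher and 3 lower. With the wells apart left out, 7 were higher and 7 lower. The enolase gene Eno1, whose reads can be split with a near-identical copy, had 44.99, 48.7, 44.8 and 47.1 CPM in whole DRG and 189, 256 and 404 CPM in naive mice (2.55, SE 0.29, p-adj = 3.84e-04). The aldolase genes Aldoa (1.43) and Aldoc (1.81) were higher too. Slc16a3, the lactate exporter MCT4, had 3.36 to 4.33 CPM in whole DRG and at most 0.308 CPM in a naive mouse, and the kinase genes Hk1 (-2.03), Pfkl (-2.07) and Pfkm (-1.20) were lower.

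Fatty acid and sterol synthesis genes were mostly lower, 15 of 26 against 3 higher, with a median of -1.04, and TMM factors left 7 lower and 4 higher. Fasn, the fatty acid synthase, stood at 581, 513, 578 and 554 CPM in whole DRG and at 19.6, 33.3 and 84.3 CPM in naive mice. No well reached whole DRG, and the log2 fold change was -3.84 (SE 0.39, p-adj = 2.20e-04). The regulators Srebf1 (-4.30) and Srebf2 (-3.43) were lower, whereas squalene synthase Fdft1 (1.02) and the elongase Elovl1 (2.80) were higher. The 3 lower genes named here have transcripts of higher GC content than the median of protein-coding genes (49.8%), whereas the list as a whole has a median of 49.3%. With trends on GC content and length removed, 11 of 26 were lower and 1 higher, with a median of -1.01. Over all genes, 17.9% were lower and 4.63% higher in that setting.

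Of 22 voltage-gated channel genes, 13 were lower and none was higher, with a median of -1.99, and 6 were lower once trends on GC content and length were removed. Hcn2, a pacemaker channel, stood at 122 to 149 CPM in whole DRG and at 0, 0.631 and 4.40 CPM in naive mice (-6.41, SE 1.20, p-adj = 0.00349). Its transcript has 65.4% GC. The calcium channel gene Cacna1a (-3.21) was lower as well.

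Mitochondrial transcripts were higher in all naive mice. Of 13 mitochondrially encoded mRNAs, which carry subunits of the respiratory chain, 6 reached 20 reads in no mouse and were not tested. The reason for their low counts was not tested. All of the 7 tested were higher, with a median of 4.48. Once trends on GC content and length were removed, 5 were higher, with a median of 2.03, and mt-Co1 turned from 1.21 to -0.39 (p-adj = 0.193). mt-Cytb stood at 194, 242, 240.2 and 202 CPM in whole DRG and at 8348, 12839 and 20839 CPM in naive mice (5.97, SE 0.37, p-adj = 2.30e-05). The share of reads on these mRNAs was 0.242, 0.326, 0.343 and 0.306% in whole DRG and 2.03, 3.01 and 4.61% in naive mice. The smallest p-value that an exact two-sided permutation test allows for 6 against 4 mice is 0.00952, which this share reached, as did 5 other library measures tested with it (adjusted p = 0.00952 for each). Among those, the 100 highest genes took 29.2 to 37.8% of reads in naive mice and 17.4 to 18.8% in whole DRG, and 8996 to 12791 genes against 14335 to 14574 reached 1 CPM.

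Nuclear genes of the respiratory chain were higher as well, 54 of 82 tested against 6 lower, with a median of 1.92. Uqcrq, a complex III subunit, was at 15.3, 34.9, 34.7 and 38.7 CPM in whole DRG and at 198, 549 and 884 CPM in naive mice (4.12, SE 0.47, p-adj = 4.00e-04), and Ndufa3, of complex I, behaved likewise (3.97, SE 0.53). Cox5a (-3.51) and Atp5b (-1.28) were lower. Once trends on GC content and length were removed, 22 were higher and 8 lower, with a median of 0.45. Of 84 tested cytoplasmic ribosomal protein genes, 29 were higher and 6 lower with a median of 0.63, but with those trends removed 8 were higher and 26 lower with a median of -0.68. Many of these genes have near-identical pseudogenes, so their counts are uncertain. Rpl35 was higher (4.38) and Rps6 lower (-4.11).

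Structural small RNAs and replication-dependent histone genes, whose transcripts mostly carry no poly(A) tail, were lower or did not pass the test. Of 5 tested structural small RNAs, 3 were lower. Scarna2, which guides modification of spliceosomal RNA, was at 47.9, 86.1, 60.7 and 78.8 CPM in whole DRG and at 0.168 CPM in the highest naive mouse, with a log2 fold change of -11.23. Rn7sk, a regulator of transcription elongation, was at 74.2 to 115 CPM against 0.243 to 5.60 CPM (-6.20). Of 29 tested replication-dependent histone genes, 13 were lower and none was higher. Hist2h2ac and Hist2h2ab, which lie side by side and are closely related to other histone genes, had no read in any naive mouse and were at least 238-fold and 108-fold lower. Of 12 genes in a list named nuclear long non-coding RNA, 2 were higher, Gas5 (2.79) and Snhg11 (2.08), and 4 were lower. Snhg11 is annotated as protein-coding and Gas5 as a processed transcript, and where in the cell these transcripts lie was not tested. Among the lower genes, Miat stood at 334, 256, 267 and 241 CPM in whole DRG and 9.95, 28.5 and 44.8 CPM in naive mice (-3.31).

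Among all protein-coding genes with at least 50 CPM in the higher group and no overlap, 914 were higher and 1952 lower. The 8 with the largest log2 fold change in the upward direction were Fos, Fosb, Zfp36, mt-Cytb, Btg2 and Egr1, with the small heat shock protein Cryab (5.72) and the ion transport regulator Fxyd3 (5.56). Cryab held 32.7 to 46.9 CPM in whole DRG, 112 to 2521 CPM in the 12 wells and 3442 to 10301 CPM in the wells apart. The 8 in the downward direction were Mrgprd, the transmembrane gene Tmem45b (-10.71), the glycosyltransferase A3galt2 (-10.53), the nicotinic receptor subunit Chrna7 (-9.84), the kinase Prkcq (-9.48), Ano8 (-9.40), Tmem259 (-9.23) and the guidance factor Slit1 (-8.67). Tmem259 stood at 132, 116, 116 and 114 CPM in whole DRG and at 0, 0.195 and 0.525 CPM in naive mice. Slit1 stood at 121, 110.4, 99.1 and 93.2 CPM against 0, 0.248 and 0.616 CPM. All 8 kept their direction and call without the wells apart, with TMM factors and with the trends removed.

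By level per kilobase of exon, 3 of the 10 highest genes were shared by the groups, Sncg, Tubb3 and mt-Co1, and 39 of the 100 highest. In naive mice the order was mt-Cytb, mt-Rnr2, mt-Nd1, Pmp22, Sncg, Tubb3, mt-Co1, Selenow, Cd9 and Cd74. This order of means hides wide differences between mice. Pmp22 stood between rank 1 (mouse 6) and rank 47 (mouse 3), and at 16 without the wells apart. Cd9 stood between rank 6 and rank 154, and at 13 without those wells. In whole DRG it was Gm26917, Tubb3, Sncg, Apoe, Nefl, mt-Co1, Prph, Calm3, Uchl1 and Tppp3. Gm26917, annotated as a long non-coding RNA gene, took 13492, 9553, 9724 and 8065 CPM in whole DRG and 0.545, 8.29 and 17.1 CPM in naive mice. What RNA these reads come from was not tested, so its rank is a description of the libraries only. Tubb3, the neuronal tubulin, took 2818 to 3369 CPM in whole DRG and 1596, 8456 and 11427 CPM in naive mice, with a log2 fold change of 1.11 that did not pass the test (p-adj = 0.140) and that passed without the wells apart (1.38, p-adj = 0.00300). Tubb3 belongs to the pan-neuronal list by which those wells were picked, so the call gained without them is no separate result. The sets gave opposite calls, higher in the set FACS alone (1.57, p-adj = 2.47e-05) and lower in the set FACS2018 alone (-0.79, p-adj = 0.00748). Cd74, the invariant chain of antigen-presenting cells, stood at rank 10 in naive mice through mouse 6, at 31595 CPM against 0 to 38.5 CPM in the other naive mice, and ranked 3465 without the wells apart.

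Among 15389 protein-coding genes tested, the difference moved with the composition of the transcript. The median log2 fold change was -0.17 for the 944 genes of at most 40% GC and -3.26 for the 677 genes of over 60% GC, of which 62.3% were lower and 1.77% higher. It was 1.51 for transcripts of at most 1 kb and -1.40 for those over 8 kb. Across genes, which are not independent replicates, Spearman's rho of the log2 fold change was -0.257 with GC content and -0.292 with length. The gap between genes of high and low GC content, measured within each library, was -2.09 to -1.76 on the log2 scale in the 6 naive mice and -0.15 to 0.30 in the 4 whole DRG mice. The part of base composition, length and library kit in single gene results was not tested, but with the trends removed 949 genes were higher (4.63%) and 3682 lower (17.9%) of 20516.

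**Figure D4:**
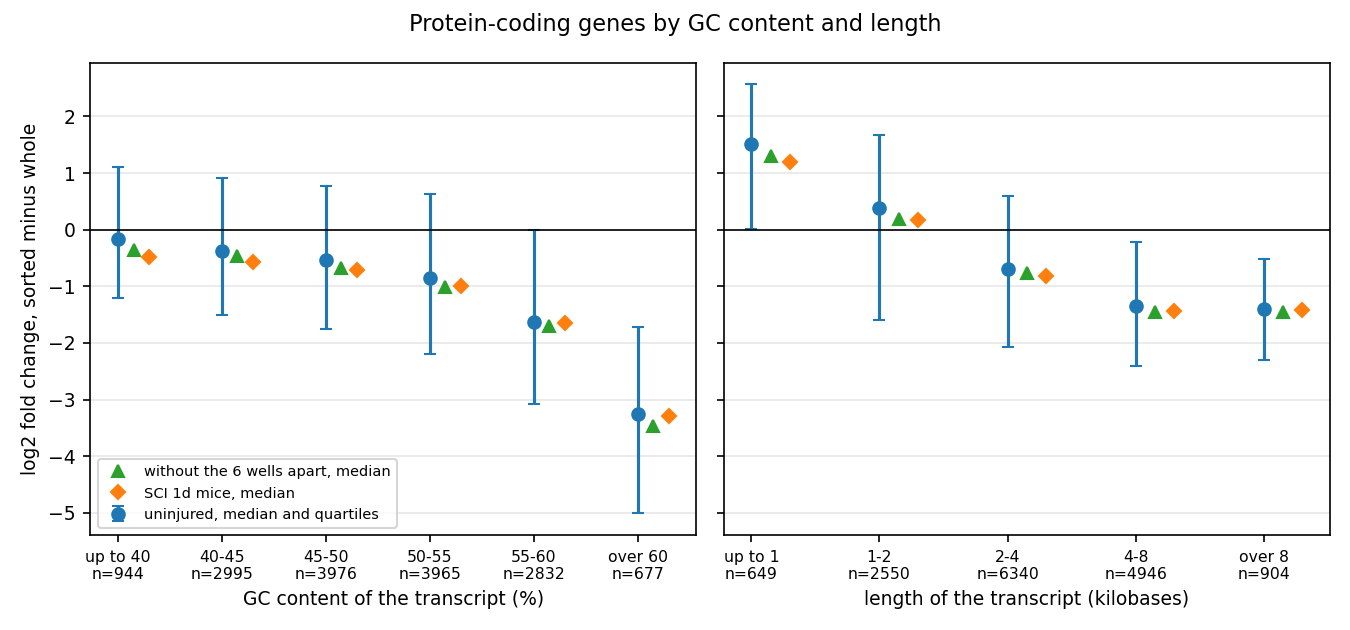
Log2 fold change, sorted minus whole, of protein-coding genes by GC content of the transcript (left, percent) and by its length (right, kilobases), as median with quartiles for uninjured mice and as medians without the 6 wells apart and in SCI 1d mice, with the number of genes under each bin. Medians fall from -0.17 to -3.26 with GC content and from 1.51 to -1.40 with length.

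The same contrast was measured in mice taken 1 day after spinal cord injury (SCI), 4 sorted and 4 whole DRG, which share no animal with the groups above but share both library kits. There, 3200 of 19963 genes were higher (16.0%) and 7275 lower (36.4%). Of the 1941 genes higher in uninjured mice, 1883 were tested there, 1878 had the same sign, 1745 were called in the same direction and 1 in the opposite one. Of the 4621 lower genes, 4533 were tested, 4442 had the same sign and 3816 were called lower. Ldhb had a log2 fold change of 3.29, Pvalb of 1.73 (p-adj = 0.173), Scn10a of -3.05 (p-adj = 0.180), Apoe of -6.51 and Fos of 9.06. Of 15 macrophage genes, 14 were lower in the SCI 1d mice. In 3 of the 12 SCI 1d wells myelin genes exceeded neuronal genes, and without them 3551 genes were higher (17.9%) and 7622 lower (38.4%).

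A test of the difference between the 2 contrasts called 2 of 21895 genes (0.00913%), and 2226 genes had an unadjusted p under 0.05. One was Calb2, with an interaction of 13.86 on the log2 scale (SE 1.92, p-adj = 0.0209), for which the SCI 1d sorted mice stood at 184, 23.2, 562 and 0.565 CPM and the SCI 1d whole DRG mice at 26.3 to 40.7 CPM. The other was the lipid droplet gene Plin4 (8.42, SE 1.30, p-adj = 0.0451), named after its value was seen. Without the wells apart no gene was called by edgeR, with 2029 at an unadjusted p under 0.05, and none was called without any 1 of the 4 SCI whole DRG mice, whereas DESeq2 called 264.

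**Figure D5:**
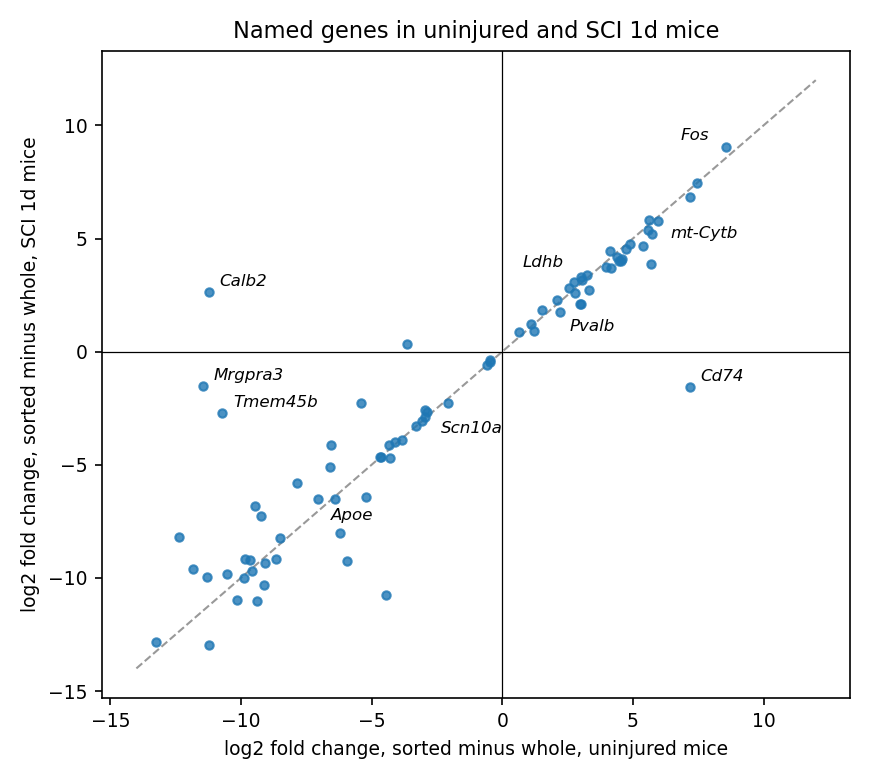
Log2 fold change, sorted minus whole, of the named genes in uninjured mice (x axis) against SCI 1d mice (y axis), 1 point per gene, with the dashed line marking equal values. Ldhb, Fos and mt-Cytb lie near the line, while Calb2, Mrgpra3 and Tmem45b lie above it and Cd74, which rests on mouse 6, lies below it.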

How the data were processed

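RNA-seq read counts were analysed for 18 naive FACS wells (6 mice) and 4 uninjured whole DRG mice, with 12 FACS wells and 4 whole DRG libraries taken 1 day after SCI as the same contrast in other mice. Per the submitters' processing notes and the study's methods, the authors used Cutadapt and PRINSEQ for trimming, STAR 2.5.3a for alignment to mm10 and HTSeq 0.6.1 for counting per gene. The deposited counts are raw, for 53379 genes in each library, and 5 lines that name no gene were left out. They stood for 33.1 to 36.0% of entries in whole DRG and 46.8 to 59.2% in naive wells, mostly reads without a unique position. The authors' tables of log2 fold changes and p-values between injury groups were not used. Whole DRG libraries used a ribosomal RNA depletion kit and sorted libraries a SMARTer Ultra Low kit. The study removed outlier samples that the labels do not name, so all mice were used, and the 3 wells of a mouse, which are technical replicates, were summed.

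The filter kept genes that reached 20 reads in 1 or more mice, which were tested with the edgeR 4.0.16 quasi-likelihood F-test (R 4.3.3) on library totals without TMM factors, at a Benjamini-Hochberg adjusted p under 0.1. Only the 2 groups entered the fit, and a fit of all 4 groups tested the interaction. TMM is an alternative because the groups differ in RNA selection. The fit was tested on simulated data, drawn with the spread of each group and few changed genes. The median fold change was recovered, but most genes with the smallest change were missed, and most calls fell on unchanged genes, far more than the threshold allows. At log2 changes of 2, 4 and 6 in 200 genes, unchanged genes made up 293, 306 and 390 of 335, 434 and 561 calls. Each run tested 18711 to 18769 genes. The data gave 1941 and 4621 calls, so the share of false calls in the simulation need not hold for them. A single call and the count of calls are therefore weak evidence by themselves. The cause of these false calls was not tested. Precision is set by the spread of sorted mice more than by depth (median SE of a log2 fold change 1.13), and floors of 3 reads cover counting error only. Alternatives used DESeq2 1.42.0, limma 3.58.1 (voom with group variances), filterByExpr, other scalings, single sets, day 1 titles, wells weighted equally, a replicate block and each mouse left out. A further pair of alternatives, chosen after seeing the data, left out wells with more CPM on myelin than on neuronal genes and removed each library's smoothed trend on GC content and length. Names, coordinates and transcripts came from GENCODE vM21 on GRCm38 (53274 identifiers matched without version). Summaries used Python 3.11.15, pandas 2.3.3 and scipy 1.17.1.

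Genes named in the text are the markers, in each list up to 3 called members without overlap of the groups and with the largest log2 fold change, the 8 largest changes in each direction among protein-coding genes with a mean of at least 50 CPM in the higher group, and the 10 highest per kilobase. Some genes under this rule are not reported here. List members outside it were named after their values were seen. The groups and lists were chosen with earlier results of these data known. Same-numbered mice of the 2 groups are of different strains and so are different animals, and they did not deviate together.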

Additional observations from a re-analysis of the deposited data

Results flagged for a closer look

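Of 110 sets of 4 or 6 mice examined over the named genes, 21 held 1 mouse far from the others by Dixon's criterion (19.1%), where chance gives about 1 in 20. Whole DRG mouse 1, which has the fewest reads, accounts for 10 of them. It was the lowest of the 4 whole DRG mice for Snrpn (289.7 CPM), Ldhb (153), Ly6c1 (4.05), mt-Nd2 (33.9), Gas5 (18.3), Ndufa3 (12.1) and Fxyd3 (2.19), and the highest for Chrna7 (180.1), Ano8 (188) and Tmem259 (132). Naive mouse 6, in which 2 of 3 wells stand apart with myelin genes above neuronal genes, accounts for a further 8, in each case as the highest naive mouse. These were Fosb (428 CPM), Rn7sk (5.60), Gas5 (583), Rpl35 (135), Cryab (7292), Egr1 (628), Fxyd3 (622) and Tmem45b (0.461). The remaining 3 were the highest values of Ret in naive mouse 1 (289 CPM), Apoe in naive mouse 5 (92.1) and Fasn in naive mouse 2 (84.3). No named gene changed direction when any 1 mouse was left out, except Cd74 without naive mouse 6.

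The sorted against whole difference itself differed between SCI 1d and uninjured mice for Calb2 (13.86 on the log2 scale) and Plin4 (8.42), each by the interaction test of edgeR, and neither call held without the wells apart. The part of the wells apart, of depth and of single mice in these values was not tested further.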

How the results depend on the processing

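The direction of the comparison as a whole rested on scaling and on the test. Higher and lower genes numbered 3259 and 3062 with TMM factors, 3330 and 3020 with DESeq2 size factors in edgeR and 4226 and 3791 with DESeq2. There were 10094 lower genes by voom with group variances, 9599 without a count filter, and 3775 higher and 7530 lower in the set FACS alone, and 8958 were lower in the set FACS2018 alone. With trends on GC content and length removed, 949 genes were higher. Leaving out 1 mouse gave 1259 to 2680 higher and 3367 to 5784 lower genes, the 1259 without whole DRG mouse 1. Counts at p-adj under 0.05, with protein-coding totals, filterByExpr, day 1 titles, wells weighted equally and without the wells apart stayed within 1.5 times the values reported. The interaction with SCI called 264 genes with DESeq2, 1 with TMM factors, 0 without the wells apart and 0 to 5 with 1 mouse left out, the 0 without any 1 of the SCI whole DRG mice and the 5 without naive mouse 2. The cause of these differences was not tested.

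Naive and whole DRG mice are of different strains, so no animal is in both groups and the title numbers do not pair animals. Same-numbered mice did not deviate together either (correlations of -0.0412 to 0.0412 in 6 pairs, against -0.0605 to 0.0808 in 18 pairs of different numbers). Of 6 naive mice, 1 was closest to its own number. A fit with the replicate number as a block, taken from the same title numbers, so that 4 naive mice share number 1 with whole DRG mouse 1, 2 share number 2 with whole DRG mouse 2, and whole DRG mice 3 and 4 have no partner, called 312 higher and 1433 lower genes. As the numbers pair no animals, these counts say nothing about a pairing.

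For the 82 named genes, 1892 of 1967 values under the alternatives kept their direction and side of the threshold, 38 lost the call and 23 gained it. The sign turned in 14. These were Ldha (-0.24) and mt-Co1 (-0.39) with trends on GC content and length removed, and Tubb3 (-0.79) in the set FACS2018 alone, where it was called lower although it was called higher in the set FACS alone. The others were of genes without a call in either case. Tppp3 turned to 0.19 with TMM factors and 0.20 with DESeq2 or its size factors, and Uchl1 to 0.20 with TMM factors and 0.24 with DESeq2 or its size factors. Cd74, positive through mouse 6, turned to -2.14 with day 1 titles, -1.84 in the set FACS alone, -3.25 by voom and -0.87 without the wells apart, and lay between -1.51 (without naive mouse 6) and 7.46 with 1 mouse left out. Depth limits the statements on genes without reads, as 3 reads over the 6 naive mice correspond to 0.00870 CPM. The sorted libraries hold pools of 100 cells, so a gene expressed in few cells can be missing from a well by sampling alone, which was not tested.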
